A study of Drosophila melanogaster with 52 samples.

Results

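Transcript levels of 8 germline genes, nos, vas, pgc, aub, piwi, bam, zpg and osk, were read from larval imaginal discs and brains, somatic tissues in which germ cell genes are expected to be silent or low. The genes were chosen by their symbols, and all 8 were found among the 16502 genes of the expression table. Levels were compared between larvae that lacked Pho or Spps, DNA-binding proteins that bring Polycomb group complexes to chromatin, and wild type. The groups were 3 libraries of pho mutants (PhoKO), 4 libraries of Spps mutants (SppsKO) and 3 wild-type libraries (WT), all from Drosophila melanogaster in the third instar, from stocks kept at 25 °C. The pho mutants lacked the zygotic product, while their maternal product was not removed. The Spps mutants lacked the maternal and the zygotic product. The labels name no allele, driver or transgene, nor the stretch of either gene that is missing. Separate cultures or dissections are not stated for replicates, so the p-values rest on variation among libraries that may be technical in part.

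Germ cells of the fly are set aside at the posterior pole of the embryo, where germ plasm RNAs and proteins such as those of osk, nos and vas specify them. In germ cells of the gonad, PIWI proteins loaded with small piRNAs silence transposons, and a switch driven by bam turns stem cell daughters towards differentiation. Somatic cells keep most of this programme off through chromatin repressors. The best known example in the larval brain is the tumour suppressor l(3)mbt, whose loss lets germline genes come on.

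The genotypes followed their labels. Spps stood at 0.957 ± 0.0743 FPKM (SD, n = 4) in SppsKO, 7.67% of the WT mean, and pho stood at 17.5 ± 1.86 FPKM (SD, n = 3) in PhoKO, 29.3% of the WT mean. FPKM is the number of sequenced fragments scaled to transcript length and to the size of the library, so levels of different genes can be set side by side. Relative depth, read from the step size of low values, lay between 59.9% (WT 3) and 106% (SppsKO 1 and SppsKO 3) of that of WT 1, with PhoKO 1 at 63.8%. The tissue carried disc and brain RNA in all libraries: 7 disc markers (vg, nub, Dll, wg, ap, dac, ey) summed to between 237 and 266 FPKM in PhoKO, 224 and 234 in SppsKO and 234 and 247 in WT. The 7 brain markers (elav, nSyb, brp, repo, nerfin-1, dpn, Syt1) summed to between 269 and 301 FPKM in PhoKO, 228 and 267 in SppsKO and 248 and 283 in WT. Disc sums of PhoKO and SppsKO did not overlap, and neither did their brain sums, PhoKO being higher in both. In bulk tissue, a change in the number of cells of a type and a change in RNA per cell cannot be told apart.

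The germline genes were low in every genotype. Averaged over all 10 libraries, 7 of the 8 stood under 1 FPKM and 3 of them (nos, osk, zpg) under 0.1 FPKM. For scale, 6922 of the 16502 listed genes also averaged under 1 FPKM, so the members lay among many other low genes. At the top was pgc with a mean of 2.68 FPKM, above 48.0% of listed genes. A middle group held vas (0.768 FPKM), aub (0.713 FPKM), bam (0.499 FPKM) and piwi (0.409 FPKM), which were above between 36.6% and 40.3% of listed genes. The lowest were nos (0.0519 FPKM), osk (0.0348 FPKM) and zpg (0.0233 FPKM). Summed over the 8 genes, libraries held between 4.52 and 5.44 FPKM in PhoKO, 5.03 and 5.36 FPKM in SppsKO and 5.0 and 6.01 FPKM in WT, and these ranges overlapped. The largest part of each sum was pgc, at between 2.02 and 3.62 FPKM. Its mean was lower in both mutants than in WT while that of vas was higher, so the sums hide opposite differences in means.

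**Figure D1:**
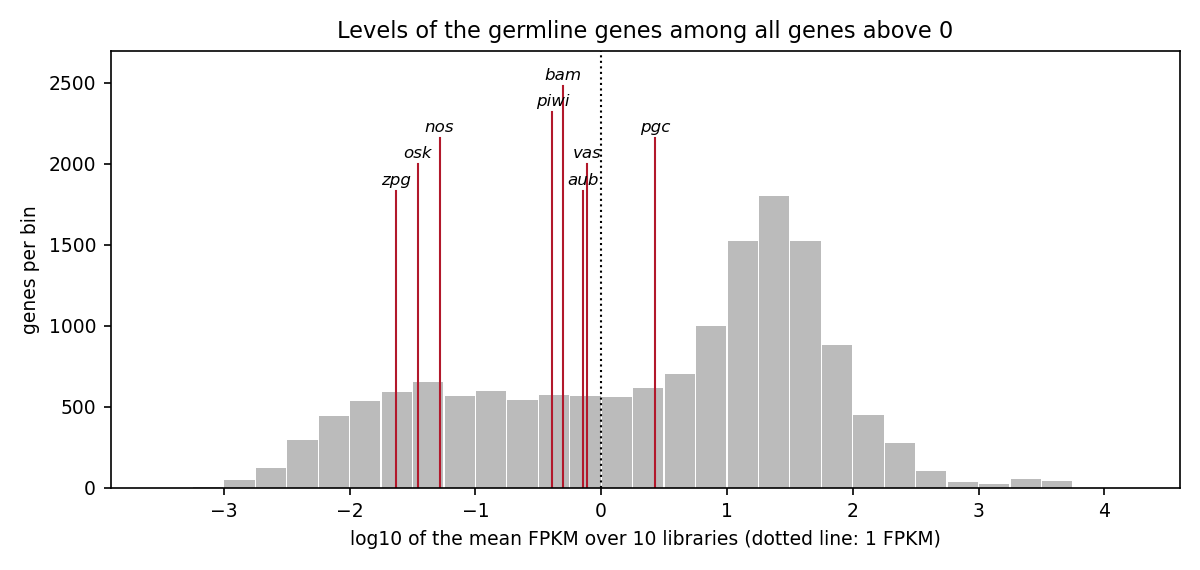
Distribution of the mean FPKM over 10 libraries (log10 axis) of all genes above 0 in the table, as genes per bin, with each germline gene marked by a red line whose height has no meaning. The line of pgc lies right of the dotted line at 1 FPKM, and the lines of the other 7 genes lie left of it, with zpg lowest at 0.0233 FPKM.

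The order of the levels differed little between genotypes. In PhoKO the order was pgc, vas, bam, aub, piwi, nos, osk, zpg, and the libraries of neighbours were apart except among vas, bam and aub and between osk and zpg. In SppsKO the order was pgc, vas, aub, piwi, bam, nos, zpg, osk, with overlap between vas and aub, between piwi and bam, and among the last 3. In WT the order was pgc, aub, vas, bam, piwi, osk, nos, zpg, with overlap between aub and vas, between bam and piwi, and among the last 3. In all 3 genotypes pgc stood apart from the next gene.

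Of the germ plasm genes, pgc was the only member with enough signal for the model test, which required 1 FPKM or more in at least 3 libraries, and it was at 1 FPKM or more in all 10. It encodes a small protein that holds transcription off in the pole cells of the embryo. Its level was 2.42, 2.18 and 2.02 FPKM in PhoKO, 2.44, 2.30, 2.73 and 2.73 FPKM in SppsKO and 3.03, 3.31 and 3.62 FPKM in WT. All 7 mutant libraries lay below all 3 WT libraries, and the ranges of the mutants overlapped each other.

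In PhoKO, pgc fell to 2.21 ± 0.203 FPKM (SD, n = 3), against 3.32 ± 0.297 FPKM (SD, n = 3) in WT, which is 66.5% of the WT mean. The limma fit over all 9748 tested genes gave a log2 fold change of -0.43 (SE 0.0929, adjusted p = 0.0191). This was the only member called in PhoKO versus WT, a comparison in which 9.66% of tested genes were called and 5.08% were called lower. Without a filter on low values it was again the only member called, among 6.38% of genes. The call was lost, with adjusted p between 0.0534 and 0.0629, when PhoKO 2, PhoKO 3, WT 2 or WT 3 was left out, and the log2 fold change then lay between -0.43 and -0.38. Without both shallow libraries, WT 3 and PhoKO 1, it was -0.43 with adjusted p = 0.0552.

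In SppsKO, pgc averaged 2.55 ± 0.218 FPKM (SD, n = 4), against 3.32 ± 0.297 FPKM (SD, n = 3) in WT, or 76.7% of the WT mean. The exact two-sided permutation test gave p = 0.0286, the smallest that 35 arrangements allow, but the limma fit gave a log2 fold change of -0.28 (SE 0.0869, adjusted p = 0.0765) and did not call it. After quantile normalization the log2 fold change was -0.09 (adjusted p = 0.552). Between the mutants, PhoKO minus SppsKO was -0.15 on the log2 scale (SE 0.0869, adjusted p = 0.291), but -0.34 with adjusted p = 0.0305 after quantile normalization.

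The annotation places pgc on chromosome arm 2R, where it partly overlaps T3dh, a gene for a dehydrogenase. Whether fragments were counted by strand is not given in the sources used here, so fragments of overlapping genes cannot be told apart. The level of T3dh was 2.99, 3.30 and 2.78 FPKM in PhoKO, 3.58, 4.13, 3.63 and 4.05 FPKM in SppsKO and 4.15, 3.86 and 4.11 FPKM in WT. T3dh also fell in PhoKO against WT, by 0.33 on the log2 scale in limma (SE 0.0814, adjusted p = 0.0355), and against SppsKO, by 0.27 (SE 0.0761, adjusted p = 0.0432). These calls were lost in 10 and 11 of 16 alternatives, with log2 fold changes between -0.41 and -0.28 against WT and between -0.45 and -0.23 against SppsKO. Over the 10 libraries the log2 levels of pgc and T3dh had a Pearson correlation of 0.676, and of -0.0336 once group means were subtracted. The part of T3dh in the pgc difference was not tested.

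The next highest was vas, which encodes a DEAD-box RNA helicase of germ plasm and nuage. It stood at 0.816, 0.649 and 0.685 FPKM in PhoKO, 0.822, 1.02, 1.1 and 0.771 FPKM in SppsKO and 0.584, 0.659 and 0.581 FPKM in WT. Every SppsKO library was above every WT library, while PhoKO overlapped both. SppsKO averaged 0.927 ± 0.156 FPKM (SD, n = 4) and WT 0.608 ± 0.0442 FPKM (SD, n = 3), a ratio of 1.53 with an exact two-sided permutation p of 0.0571. Only 2 libraries reached 1 FPKM, so vas was not in the filtered fit. In the limma fit without a filter on low values its log2 fold change was 0.26 (SE 0.0797, adjusted p = 0.105), which is not a call. The vas locus on arm 2L also holds vig, at between 136 and 147 FPKM in PhoKO, 142 and 152 FPKM in SppsKO and 135 and 143 FPKM in WT, and solo, which was not analysed here. The part of vig in the vas values was not tested.

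The gene nos, for a translational repressor in the embryo and in germ cells, stood at 0.0497, 0.0433 and 0.0487 FPKM in PhoKO, 0.0200, 0.0699, 0.0698 and 0.130 FPKM in SppsKO and 0.0423, 0.0106 and 0.0351 FPKM in WT. All PhoKO libraries were above all WT libraries, the narrowest gap being 0.0433 FPKM in PhoKO 2 against 0.0423 FPKM in WT 1. The spread within SppsKO, with SppsKO 4 highest and SppsKO 1 lowest, covered the other groups. The exact two-sided permutation test gave p = 0.1 for PhoKO against WT, the smallest that 3 libraries against 3 allow, and p = 0.171 for SppsKO against WT. On arm 3R, nos partly overlaps CG11779, at between 15.9 and 19.1 FPKM, and CG42358 (Nsun5 in the current annotation), at between 30.8 and 34.5 FPKM. The part of these neighbours in the nos values was not tested.

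The gene osk, for the organiser of germ plasm assembly, stood at 0.0391, 0.00853 and 0 FPKM in PhoKO, 0.0472, 0.0459, 0.0628 and 0.0278 FPKM in SppsKO and 0.0333, 0.0420 and 0.0415 FPKM in WT. PhoKO 2 and PhoKO 3 were the lowest libraries, but PhoKO 1 lay among the others, and each pair of genotypes overlapped. Exact two-sided permutation p-values were 0.2 for PhoKO against WT, 0.486 for SppsKO against WT and 0.0857 for PhoKO against SppsKO. On arm 3R, osk partly overlaps CR44020, at 0.0785 FPKM in PhoKO 3 and 0 elsewhere, and holds lncRNA:osk, which was not analysed here.

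**Figure D2:**
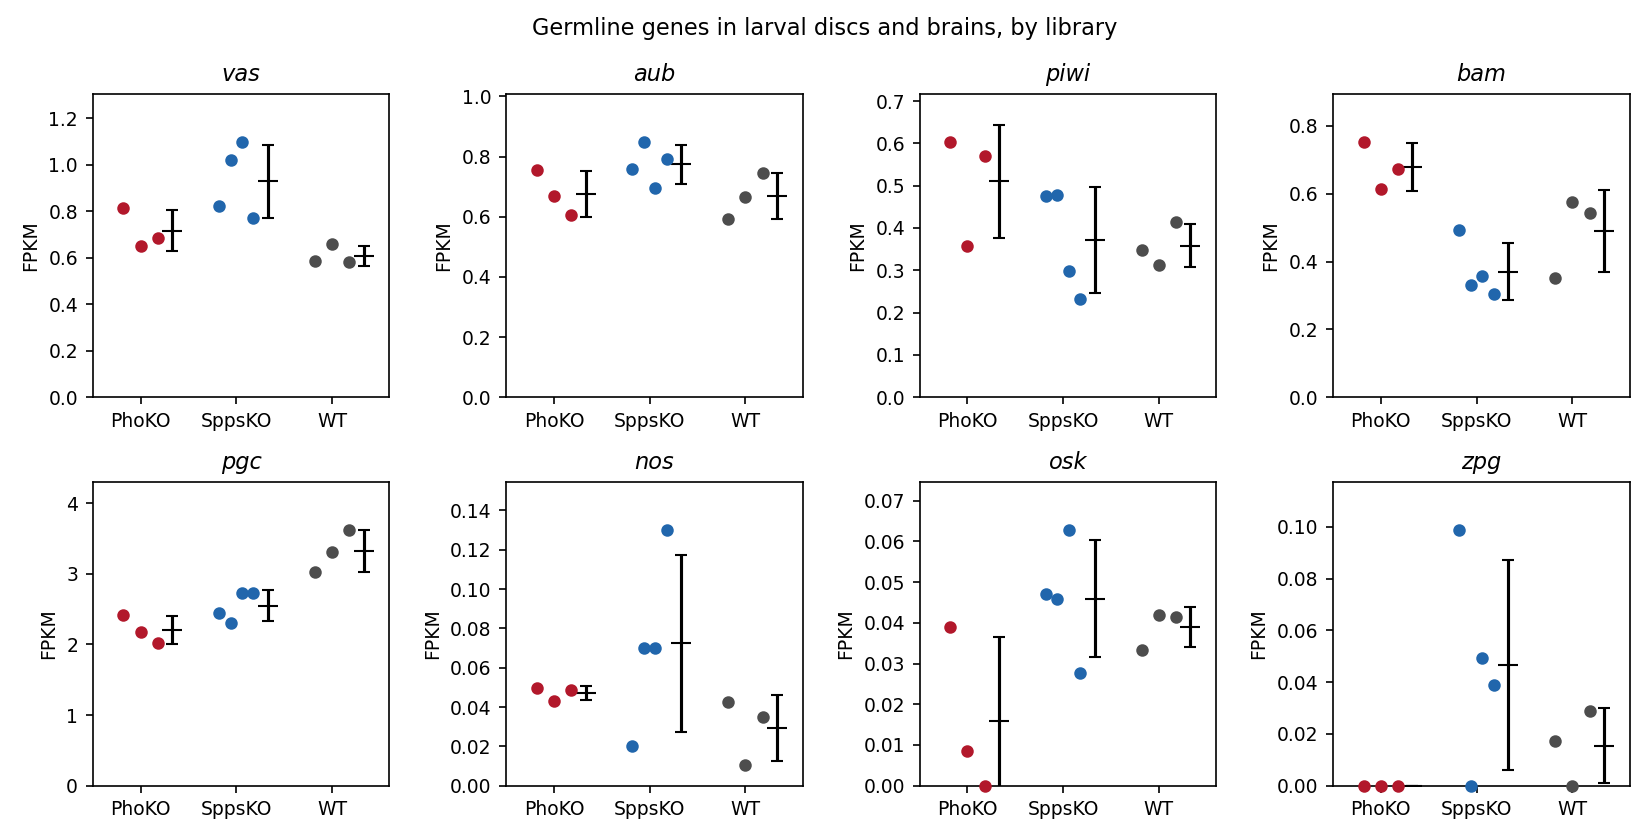
FPKM of the 8 germline genes in each library (points; red PhoKO, blue SppsKO, grey WT), with the mean and SD of each genotype beside them (black bars); each panel has its own axis from 0. All pgc points of the mutants, from 2.02 to 2.73 FPKM, lie below the WT points, and the bam points of PhoKO lie above those of both other genotypes.

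In the values as deposited, the piRNA pathway members gave no separation between genotypes. The gene aub, for a PIWI protein of the nuage that slices transposon RNA, stood at 0.756, 0.668 and 0.605 FPKM in PhoKO, 0.760, 0.850, 0.695 and 0.792 FPKM in SppsKO and 0.594, 0.666 and 0.747 FPKM in WT. Each pair of genotypes overlapped, with exact two-sided permutation p-values of 0.7 for PhoKO against WT, 0.114 for SppsKO against WT and 0.143 for PhoKO against SppsKO. SppsKO had the highest mean, 0.774 ± 0.0646 FPKM (SD, n = 4), against 0.669 ± 0.0766 FPKM (SD, n = 3) in WT.

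The gene piwi, for a nuclear protein that directs transcriptional silencing in germ cells and in somatic cells of the ovary, stood at 0.603, 0.357 and 0.571 FPKM in PhoKO, 0.475, 0.478, 0.299 and 0.233 FPKM in SppsKO and 0.349, 0.312 and 0.414 FPKM in WT. PhoKO 1 and PhoKO 3 were the highest libraries and SppsKO 4 the lowest, and PhoKO 2 lay within the WT range. Exact two-sided permutation p-values were 0.2 for PhoKO against WT, 0.943 for SppsKO against WT and 0.2 for PhoKO against SppsKO. Both genes lie on arm 2L beside an overlapping gene with far higher levels: CG16833 (TTLL4A in the current annotation) at between 18.4 and 20.6 FPKM overlaps aub, and SCAR at between 44.5 and 51.9 FPKM overlaps piwi.

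The levels of bam, which switches germline stem cell daughters to differentiation, separated the mutants from each other. They were 0.754, 0.613 and 0.674 FPKM in PhoKO, 0.492, 0.330, 0.356 and 0.304 FPKM in SppsKO and 0.352, 0.577 and 0.542 FPKM in WT. All PhoKO libraries were above all others, while SppsKO and WT overlapped. PhoKO averaged 0.680 ± 0.0707 FPKM (SD, n = 3), against 0.370 ± 0.0836 FPKM (SD, n = 4) in SppsKO, a ratio of 1.84. The exact two-sided permutation test gave p = 0.0286 for this pair, the smallest that 35 arrangements allow and unadjusted for the other members and pairs. The gene was below the filter, and in the limma fit without a filter, in which 9.13% of 15120 genes were called between the mutants, its log2 fold change was 0.30 (SE 0.0758, adjusted p = 0.0429). After quantile normalization the difference in means was 0.209 FPKM with an exact two-sided permutation p of 0.0571.

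Against WT, which averaged 0.490 ± 0.121 FPKM (SD, n = 3), bam in PhoKO had a ratio of 1.39, an exact two-sided permutation p of 0.1, which is the smallest possible, and an adjusted p of 0.276 in limma without a filter. SppsKO stood at 75.6% of WT with overlapping libraries (exact two-sided permutation p = 0.2; limma without a filter, adjusted p = 0.446). The gene overlaps CG11854 on arm 3R, whose level was 9.55, 24.3 and 13.2 FPKM in PhoKO, 4.95, 5.07, 13.3 and 8.85 FPKM in SppsKO and 28.4, 31.6 and 22.4 FPKM in WT. CG11854 was highest in WT and bam was highest in PhoKO, so their genotype means did not have the same order. The part of CG11854 in the bam values was not tested.

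The gene zpg, for the innexin that joins germ cells to their somatic support cells by gap junctions, was listed at 0 in all 3 PhoKO libraries. It stood at 0.0988, 0, 0.0492 and 0.0388 FPKM in SppsKO and 0.0174, 0 and 0.0290 FPKM in WT. SppsKO 2 and WT 2 were also at 0, so the groups overlapped, with exact two-sided permutation p-values of 0.143 for PhoKO against SppsKO, 0.4 for PhoKO against WT and 0.286 for SppsKO against WT. On arm 3L, zpg lies inside CG8368 (Rexo5 in the current annotation), at between 24.1 and 26.3 FPKM. The part of CG8368 in the zpg values was not tested.

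The size of FPKM steps gave back whole numbers of fragments for 5 of the members, within 0.1 of a fragment in every library, and these show how few molecules stand behind the low values. For zpg there were 0 fragments in PhoKO, 11 in SppsKO (6, 0, 3 and 2 per library) and 2 in WT (1, 0 and 1). For osk there were 4 fragments in PhoKO (3, 1 and 0), 22 in SppsKO (6, 5, 8 and 3) and 12 in WT (4, 5 and 3). The nos values rested on 11 fragments in PhoKO (3, 4 and 4), 26 in SppsKO (2, 6, 7 and 11) and 7 in WT (4, 1 and 2). In these 3 genes every comparison thus rested on at most 26 fragments in a genotype.

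More stood behind bam, with 128 fragments in PhoKO (37, 46 and 45), 113 in SppsKO (40, 23, 29 and 21) and 96 in WT (27, 44 and 25). The pgc values rested on 253 fragments in PhoKO (72, 99 and 82), 466 in SppsKO (120, 97, 135 and 114) and 395 in WT (141, 153 and 101). Fragments of vas, aub and piwi could not be recovered as whole numbers.

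Scaled to the depth of WT 1, bam had 51.5 fragments per library in PhoKO (exact Poisson 95% interval 43.0 to 61.2), 28.8 in SppsKO (23.7 to 34.6) and 37.1 in WT (30.0 to 45.2). The intervals of PhoKO and SppsKO did not overlap, and those of PhoKO and WT did. On the same scale pgc had 102 fragments in PhoKO (89.6 to 115), 119 in SppsKO (108 to 130) and 152 in WT (138 to 168), and the WT interval lay above both mutants. Intervals of nos were 2.21 to 7.92 in PhoKO, 4.33 to 9.71 in SppsKO and 1.09 to 5.57 in WT, and all overlapped. For osk they were 0.438 to 4.12 in PhoKO, 3.51 to 8.49 in SppsKO and 2.39 to 8.09 in WT, and all overlapped. The 0 fragments of zpg in PhoKO allow up to 1.48 per library, which reaches into the intervals of SppsKO (1.40 to 5.02) and WT (0.0935 to 2.79). These intervals cover counting error only, not differences between libraries, and fragments may include copies made during amplification. An overlap of intervals does not show that levels were equal.

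**Figure D3:**
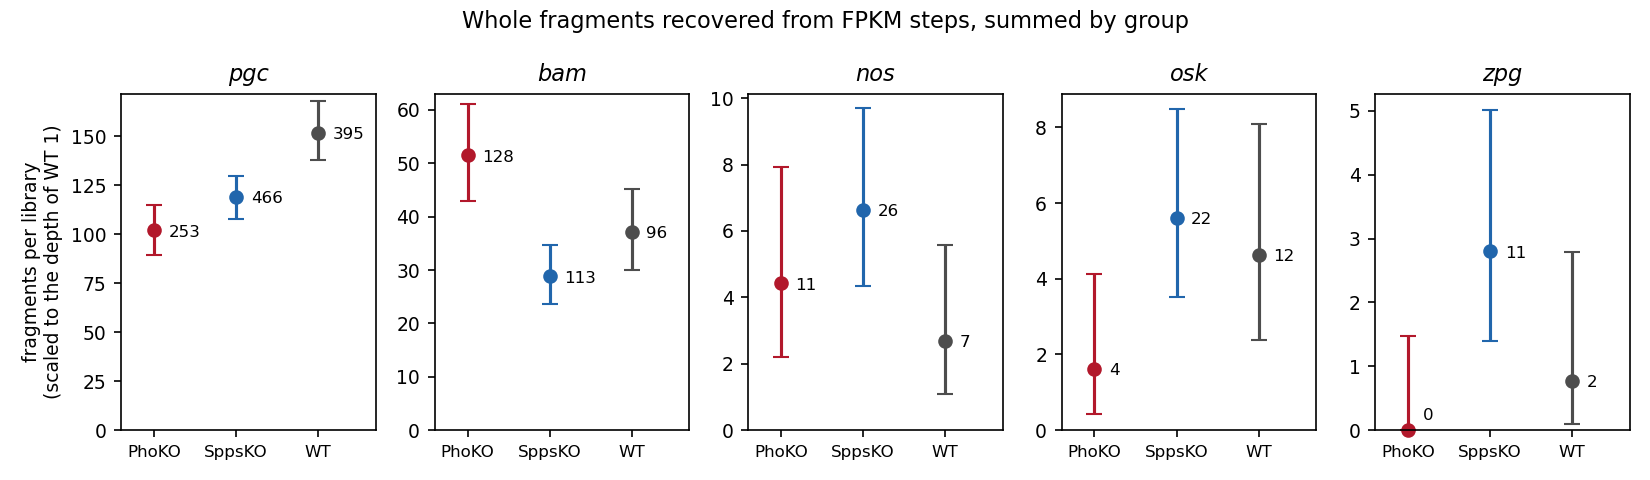
Whole fragments recovered for 5 germline genes, per library and scaled to the depth of WT 1 (points), with exact Poisson 95% intervals for counting error (bars) and the unscaled number of fragments of each genotype beside the point. For bam the PhoKO interval, from 43.0 to 61.2, lies above that of SppsKO, and for nos, osk and zpg the intervals of all genotypes overlap.

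Counted over the 8 members, few separated the genotypes. In PhoKO against WT, libraries did not overlap for 3 members (nos and bam higher, pgc lower), where 22.8% of all genes above 0 in a library and 13.9% of those averaging under 1 FPKM did not overlap. In SppsKO against WT, 2 members did not overlap (vas higher, pgc lower), with shares of 19.2% and 11.4% for the same gene sets. Between PhoKO and SppsKO, 1 member did not overlap (bam, higher in PhoKO), with shares of 24.4% and 12.5%. Set against these shares, 1 to 3 of 8 members were read as no result about the list.

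The filtered limma fit held only pgc of the 8 members, and pgc was not called in SppsKO against WT, where 8.18% of tested genes were called. Without a filter all 8 members were in the fit and none was called. There 5.03% of genes were called, and 2 members, vas and pgc, had an unadjusted p under 0.05. Between PhoKO and SppsKO, with 14.4% of tested genes called, pgc was not called and its unadjusted p in limma was 0.127. Without a filter bam was called (unadjusted p in limma 0.00355), where 9.13% of genes were called. No germline member thus rose above WT in either mutant by the adjusted test. For nos, osk and zpg no comparison was called without a filter, on a scale that understates fold changes of low genes. Their fragment numbers were not compared between genotypes by a direct test. Whether sequencing depth or spread between libraries limited these comparisons was not tested.

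Genes that followed pgc across the 10 libraries were sought among 9579 genes averaging 1 FPKM or more. The highest Pearson correlations of log2 levels were with CG31698 (0.96), CG15404 (0.959) and Arc1 (0.945), which encodes a capsid-forming RNA carrier of neurons. CG31698 stood at 4.31, 1.19 and 0.312 FPKM in PhoKO, 7.37, 4.37, 25.8 and 21.9 FPKM in SppsKO and 16.2, 73.4 and 88.2 FPKM in WT, so its range was far wider than that of pgc. CG15404 had values near these in most libraries: 4.52, 1.96 and 0 FPKM in PhoKO, 8.37, 3.96, 24.7 and 19.5 FPKM in SppsKO and 16.5, 70.6 and 86.3 FPKM in WT. Whether CG31698 and CG15404 share fragments was not tested, so they may not be separate cases. Arc1 stood at 43.7, 48.9 and 30.4 FPKM in PhoKO, 48.2, 46.5, 54.5 and 53.8 FPKM in SppsKO and 63.6, 72.5 and 92.8 FPKM in WT. After subtracting group means the first 3 were CG31698 (0.965), CG15404 (0.956) and Tsp42El (0.953). These values describe a ranking of many genes over 10 shared libraries.

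Beyond the 8 members, other germline genes were read by lists. Of 26 piRNA pathway genes, 20 were tested. In PhoKO against WT 2 rose and 1 fell, and in SppsKO against WT 2 rose and none fell. These counts of 3 and 2 among 20 lie near the shares called over all tested genes, 9.66% in PhoKO and 8.18% in SppsKO. The median log2 fold change of the tested genes was 0.01 in PhoKO and 0.03 in SppsKO, against 0.00 over all tested genes in both comparisons. The genes that rose were mael and SoYb in both mutants, which share their WT libraries, and the gene that fell in PhoKO was arx.

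The gene mael, for a nuage and nuclear protein needed for piRNA silencing, had the largest log2 fold change of the tested germline genes in SppsKO against WT. Its level was 2.60, 2.71 and 2.67 FPKM in PhoKO, 4.84, 5.14, 4.46 and 5.45 FPKM in SppsKO and 1.44, 1.42 and 1.60 FPKM in WT. The 3 genotypes did not overlap, with SppsKO highest and WT lowest. In limma the log2 fold change was 0.56 in PhoKO against WT (SE 0.0828, adjusted p = 0.00259) and 1.26 in SppsKO against WT (SE 0.0775, adjusted p = 9.84e-06). PhoKO minus SppsKO was -0.70 (SE 0.0775, adjusted p = 0.000393). All 3 calls held in all 16 alternatives. The annotation places CG14451 inside mael and CG14450 partly over it, and CG14450, at between 7.70 and 10.1 FPKM, was the higher of these neighbours. CG14451 stood at 0.606, 0.592 and 0.849 FPKM in PhoKO, 0.578, 0.497, 0.757 and 0.754 FPKM in SppsKO and 0.546, 0.357 and 0.377 FPKM in WT. Its PhoKO libraries were above those of WT, and SppsKO overlapped WT. The part of these neighbours in the mael values was not tested.

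The gene SoYb, for a Tudor domain protein of the piRNA pathway, stood at 1.29, 1.21 and 1.50 FPKM in PhoKO, 1.37, 1.42, 1.29 and 1.28 FPKM in SppsKO and 0.451, 0.588 and 0.661 FPKM in WT. All mutant libraries were above all WT libraries, and the mutants overlapped. The log2 fold change in limma was 0.58 in PhoKO (SE 0.102, adjusted p = 0.00692) and 0.58 in SppsKO (SE 0.0953, adjusted p = 0.00491), and both calls held in all 16 alternatives, the fit without a filter included. It passed the filter only through its mutant libraries. SoYb lies inside CG31875, which stood at 1.79, 1.83 and 1.78 FPKM in PhoKO, 1.62, 1.1, 1.70 and 1.69 FPKM in SppsKO and 0.734, 1.12 and 0.931 FPKM in WT. The neighbour was thus also low in WT, and its part in the SoYb values was not tested.

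The gene arx, for a partner of nuclear Piwi, stood at 8.09, 8.52 and 8.49 FPKM in PhoKO, 11.1, 11.6, 9.99 and 10.8 FPKM in SppsKO and 11.9, 9.67 and 12.6 FPKM in WT. PhoKO was below both other groups, which overlapped. It fell by 0.40 on the log2 scale against WT (SE 0.0884, adjusted p = 0.0226) and by 0.34 against SppsKO (SE 0.0827, adjusted p = 0.0242) in limma. Each call was lost in 7 of 16 alternatives, among them leaving out any PhoKO library, and the highest adjusted p against WT was 0.127. The helicase gene spn-E fell in PhoKO against SppsKO by 0.38 (SE 0.0852, adjusted p = 0.0177; lost in 4 of 16 alternatives), with 1.44, 1.61 and 1.46 FPKM in PhoKO and 2.15, 2.29, 2.36 and 2.21 FPKM in SppsKO. Against WT, at 1.75, 1.94 and 2.26 FPKM, the PhoKO value was -0.25 (adjusted p = 0.124). Pbp45, which the annotation places inside spn-E, stood at between 7.39 and 7.95 FPKM in PhoKO and 9.5 and 11.1 FPKM in SppsKO. The part of Pbp45 in the spn-E values was not tested. Of the pathway genes, 6 averaged under 1 FPKM, among them the PIWI gene AGO3, whereas armi, papi and egg stood above 20 FPKM in every library.

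**Figure D4:**
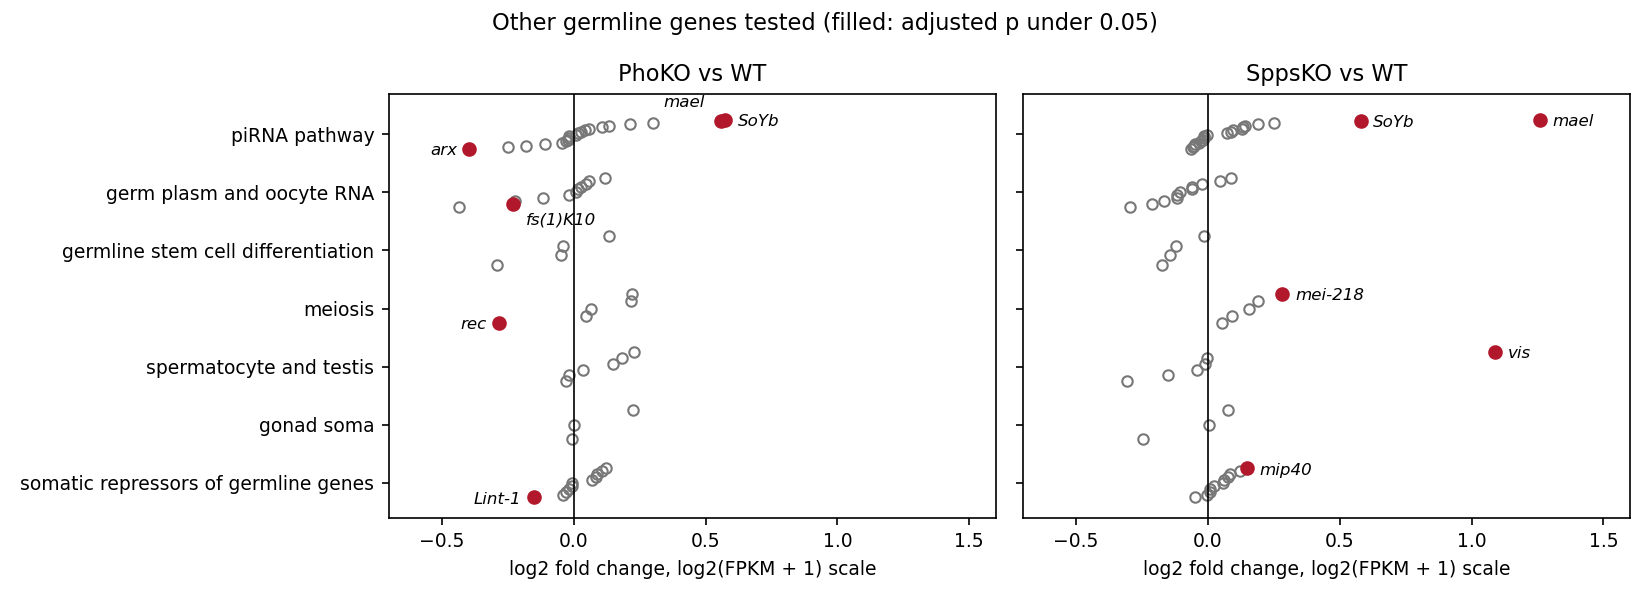
log2 fold changes on the log2(FPKM + 1) scale of the tested genes of 7 lists, in PhoKO against WT (left) and SppsKO against WT (right); filled red points have an adjusted p under 0.05 in limma and are named, open points do not. Most genes lie near 0; mael and SoYb lie farthest right in both panels, joined by vis in SppsKO against WT.

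Germ plasm and oocyte RNAs were mostly present. Of 15 genes 14 were in the table and 11 tested, and only fs(1)K10, which acts in oocyte polarity, was called against WT. It stood at 15.1, 17.1 and 17.4 FPKM in PhoKO and 18.9, 19.4 and 20.2 FPKM in WT, a log2 fold change of -0.23 in limma (SE 0.061, adjusted p = 0.0443), and this call was lost in 14 of 16 alternatives. In SppsKO against WT none was called. The actin regulator spir was called between the mutants, at 0.24 in PhoKO against SppsKO (SE 0.0656, adjusted p = 0.0374; lost in 10 of 16 alternatives). The calls of fs(1)K10 and spir were each 1 of 11 tested genes. Of all tested genes, 9.66% were called in PhoKO against WT and 14.4% in PhoKO against SppsKO, and nothing was read from these counts. None of the 4 tested germline stem cell differentiation genes (mei-P26, ovo, Rbp9, stet) was called in any comparison. The median log2 fold change was 0.01 in PhoKO and -0.10 in SppsKO for the germ plasm list, and -0.04 in PhoKO and -0.13 in SppsKO for the stem cell list.

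Among meiosis genes, 12 of 13 were in the table and 5 were tested, and 3 calls concerned rec and mei-218, MCM-like proteins of meiotic crossing over. Each comparison called 1 of the 5, where 9.66% (PhoKO against WT), 8.18% (SppsKO against WT) and 14.4% (PhoKO against SppsKO) of all tested genes were called, and nothing was read from these counts. The gene rec stood at 5.97, 7.35 and 7.12 FPKM in PhoKO, 9.70, 9.63, 9.11 and 9.82 FPKM in SppsKO and 8.43, 8.68 and 8.32 FPKM in WT. No libraries overlapped between genotypes, PhoKO being lowest and SppsKO highest. In limma rec fell in PhoKO by 0.28 against WT (SE 0.0708, adjusted p = 0.0358) and by 0.44 against SppsKO (SE 0.0662, adjusted p = 0.00242); the first call was lost in 11 of 16 alternatives and the second in none. The gene mei-218 stood at 8.93, 9.76 and 9.48 FPKM in PhoKO, 9.24, 9.68, 10.4 and 10.2 FPKM in SppsKO and 7.41, 8.09 and 8.32 FPKM in WT. It rose in SppsKO by 0.28 (SE 0.0589, adjusted p = 0.0168), a call lost without SppsKO 3 or WT 1, and the PhoKO value was 0.22 (adjusted p = 0.0595). The median log2 fold change of the 5 genes was 0.06 in PhoKO and 0.16 in SppsKO.

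**Figure D5:**
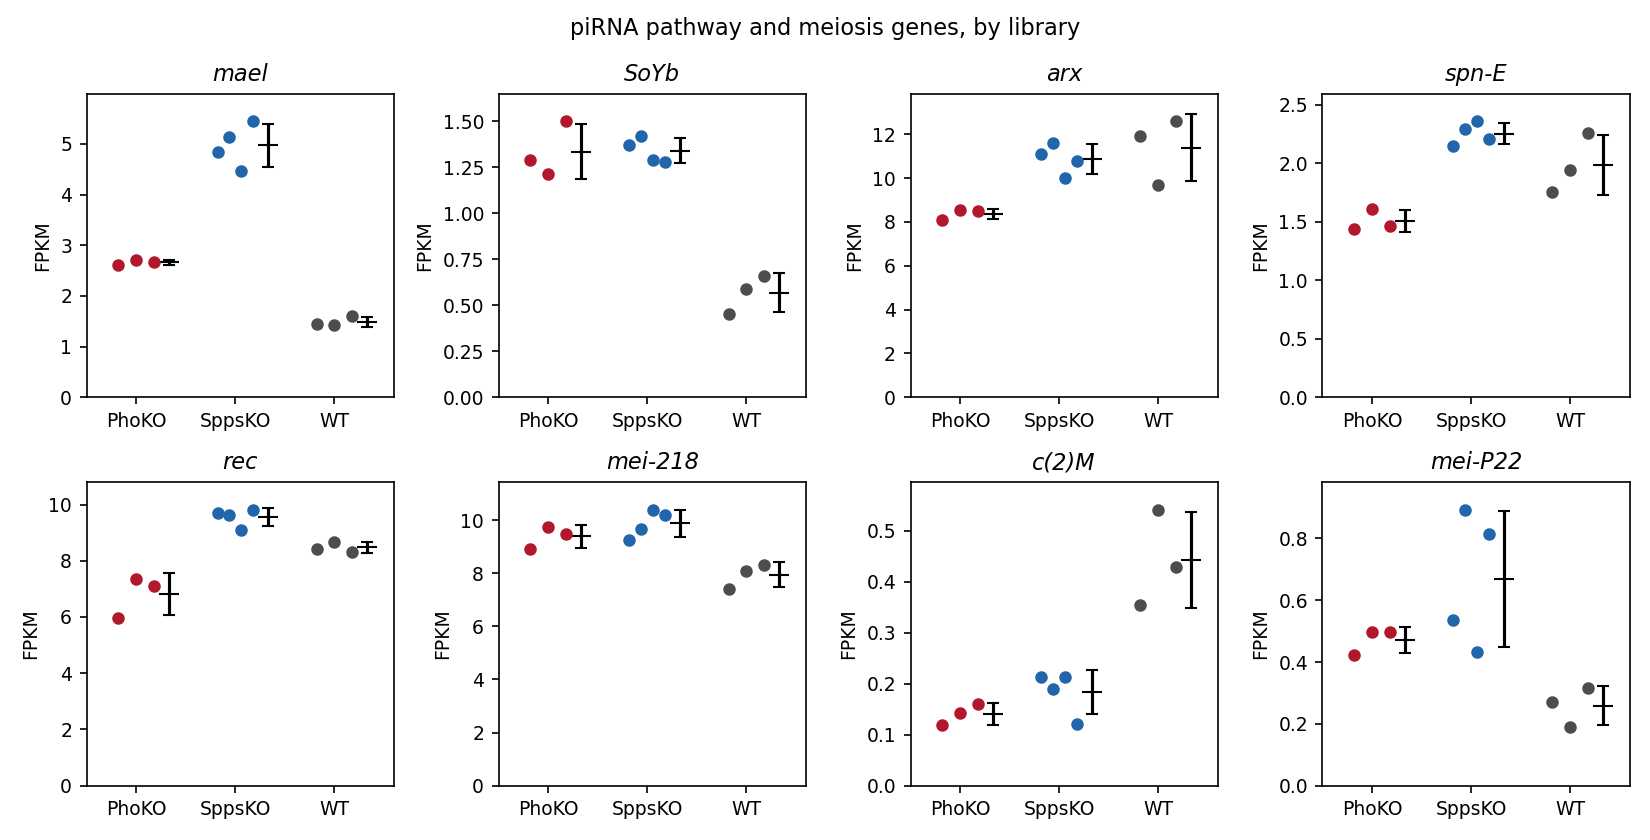
FPKM of 4 piRNA pathway genes (upper row) and 4 meiosis genes (lower row) in each library (points; red PhoKO, blue SppsKO, grey WT), with the mean and SD of each genotype (black bars); each panel has its own axis from 0. For mael the 3 genotypes are apart, with SppsKO between 4.46 and 5.45 FPKM, and for c(2)M all WT points are above all mutant points.

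Genes of spermatocytes and testis were nearly silent apart from a few. Of 22 genes, 17 averaged under 1 FPKM and 11 under 0.1 FPKM, and the spermatocyte regulators aly, comr, sa and nht were at or near 0 in every library. The whole list summed to between 29.2 and 31.0 FPKM in PhoKO, 29.5 and 31.9 FPKM in SppsKO and 28.0 and 28.4 FPKM in WT, most of it from achi, mia, vis and twe. Without vis the sums were 26.4 to 27.9 FPKM in PhoKO, 22.5 to 24.4 FPKM in SppsKO and 24.9 to 25.4 FPKM in WT, so SppsKO was above WT with vis and below it without. Only vis, which encodes a homeodomain protein of the TGIF family, was called against WT, in SppsKO: 7.48, 7.58, 6.92 and 7.15 FPKM, against 3.11, 2.98 and 2.63 FPKM in WT (limma log2 fold change 1.09, SE 0.0835, adjusted p = 4.16e-05). PhoKO, at 2.49, 3.27 and 2.85 FPKM, overlapped with WT. The gene vis lies beside its near-identical copy achi, so fragments may have been divided between them and both values are uncertain. In PhoKO against SppsKO, achi (log2 fold change 0.33, adjusted p = 0.00226) and bol (0.46, adjusted p = 0.0217; lost in 6 of 16 alternatives, with 0.27 after quantile normalization) were higher and vis (-1.10, adjusted p = 3.98e-05) was lower in limma. The median log2 fold change of the 6 tested genes was 0.09 in PhoKO and -0.03 in SppsKO. Of these 6, 1 was called in SppsKO against WT, where 8.18% of all tested genes were called. Between the mutants 2 were higher and 1 was lower in PhoKO, where 14.4% of all tested genes were called. Nothing was read from these counts.

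Markers of gonadal support cells (tj, os, Six4, foi and fs(1)Yb) summed to between 37.7 and 40.6 FPKM in PhoKO, 37.8 and 39.5 FPKM in SppsKO and 37.5 and 40.2 FPKM in WT. Most of each sum came from foi, at between 31.7 and 35.2 FPKM, so the sums say little about the other genes. Libraries of tj were lower in SppsKO (1.13 to 1.32 FPKM) than in WT (1.54 to 1.74 FPKM). Those of os were higher in PhoKO (3.32 to 3.49 FPKM) than in WT (2.63 to 2.99 FPKM). No tested gene of the 3 was called. Larval fat body markers varied within genotypes, from 722 to 4300 FPKM in PhoKO, 1320 to 2090 FPKM in SppsKO and 1260 to 5420 FPKM in WT, and none of the 6 was called in any comparison. The somatic repressors of germline genes were all expressed. Of 11 tested, l(3)mbt and its partners included, only Lint-1 was called in PhoKO against WT (log2 fold change -0.15, SE 0.0394, adjusted p = 0.04; lost in 13 of 16 alternatives). Only mip40 was called in SppsKO against WT (log2 fold change 0.15, SE 0.0395, adjusted p = 0.0484; lost in 11 of 16 alternatives), both in limma. Between the mutants, Lint-1 (log2 fold change -0.16, adjusted p = 0.0193) and E2f2 (-0.16, adjusted p = 0.0139) were lower in PhoKO, calls lost in 5 and 2 of 16 alternatives. Lint-1 partly overlaps rtv, at between 20.4 and 25.1 FPKM in PhoKO, 31.0 and 32.5 FPKM in SppsKO and 22.8 and 31.2 FPKM in WT. E2f2 partly overlaps Mpp6, at between 11.44 and 14.25 FPKM in PhoKO and 14.92 and 17.16 FPKM in SppsKO. The part of rtv and Mpp6 in these calls was not tested. Of the disc markers, wg was higher and ap lower in SppsKO against WT, none was called in PhoKO against WT, and Dll, ap and dac were higher in PhoKO than in SppsKO. Of 16 alternatives, the wg call was lost in 12, that of ap in 3 against WT and 9 between the mutants, that of Dll in 8 and that of dac in 3. Of the brain markers, only repo was called, higher in PhoKO than in WT (log2 fold change 0.33, adjusted p = 0.00949) and than in SppsKO (0.31, adjusted p = 0.0076). The call against WT was lost without both shallow libraries (adjusted p = 0.0605). The part of these markers in the germline values was not tested. Over all tested genes, 9.66% were called in PhoKO against WT, 8.18% in SppsKO against WT and 14.4% between the mutants. Nothing was read from the counts of calls in the repressor, disc and brain lists.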

How the data were processed

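Poly(A) RNA of 10 libraries was analysed; the 42 ChIP-Seq samples were not used here. The authors deposited a table of normalized FPKM with a row per gene. Per the submitters' processing notes, the series used Cuffnorm, Cufflinks, TopHat2 2.1.1, DESeq2 and HTSeq, and the genome builds BDGP5 and dm3. The tool behind the FPKM and its strand setting are not stated there. Per the labels' protocols, a stranded kit was used, and 12 libraries shared a sequencing run. Names and overlaps of genes came from the Release 6 annotation, to which 16299 of 16502 symbols matched; its coordinates are not used here. No sequences were analysed here, and a planned count of promoter motifs was not run.

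Values were taken as log2(FPKM + 1), a scale that understates fold changes of low genes. The 9748 genes at 1 FPKM or more in at least 3 libraries entered 1 limma 3.58.1 fit (R 4.3.3; eBayes with trend and robust) of all 10 libraries, checked on simulated data, with Benjamini-Hochberg adjustment within each comparison and calls at an adjusted p under 0.05. Every member, tested or not, also had an exact two-sided permutation test of the difference in mean FPKM. Relative depth came from FPKM steps of genes under 0.3 FPKM.

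The members and the 10 gene lists were chosen with earlier results of these data known. Genes named are the members, both targeted genes, genes overlapping a member, up to 4 tested genes per list in order of adjusted p, and the 3 genes most like each member averaging 1 FPKM or more. The other testis, gonad and repressor genes were named after their values were seen. So were AGO3, armi, papi, egg, swa, bcd, tud and the untested genes under other observations. So were the genes overlapping mael, SoYb, spn-E, Lint-1 and E2f2. Alternatives were a pseudocount of 0.1, no filter, median-of-ratios scaling, quantile normalization, the replicate number as a block, leaving out each library, and, chosen after seeing the data, leaving out both shallow libraries.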

Additional observations from a re-analysis of the deposited data

Results flagged for a closer look

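In SppsKO, the glial marker repo was at 17.7 FPKM in SppsKO 4, apart from the other 3 libraries at 16.4 to 16.6 FPKM; the gap was 0.857 of the group's range, above the limit that Dixon's 95% test sets for 4 samples. It was the only such case among 30 genes examined, and chance alone marks about 1 group in 20.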

How the results depend on the processing

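The count of genes called in PhoKO against WT was 942, and 627 without both shallow libraries; leaving out each library in turn gave 554 (without WT 1) to 1112. In SppsKO against WT the count was 797, with a range of 506 (without SppsKO 2) to 838. In PhoKO against SppsKO it was 1400, with a range of 829 (without PhoKO 1) to 1671. With the replicate number as a block the counts were 449 in SppsKO against WT and 753 in PhoKO against SppsKO. Same-numbered libraries of different genotypes deviated with correlations between -0.377 and 0.11, and differently numbered ones between -0.314 and 0.392. These deviations are from means of 3 or 4 libraries, so they cannot show whether same-numbered libraries shared a batch. Members called in PhoKO against WT (1, pgc) were 0 with the replicate block (adjusted p = 0.0643) and without both shallow libraries, and 0 to 1 when each library was left out. Members called in PhoKO against SppsKO (0) were 1 without a filter (bam) and 1 after quantile normalization (pgc). None of the 35 named fold changes put through these alternatives changed sign. Quantile normalization raised the share of higher calls in SppsKO against WT to 67.7%, against 47.9% as deposited, and lowered it in PhoKO against SppsKO to 37.5%, against 50.4%; the cause was not tested. It also moved the exact two-sided permutation p of vas in SppsKO against WT to 0.0286 and that of aub to 0.0286. The direction of aub in PhoKO against WT and of piwi in SppsKO against WT turned in 3 alternatives each. The values of nos, osk and zpg rest on 44, 38 and 13 fragments in all, which limits what they can show.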

Other observations

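Among germline genes below the filter on low values, 4 (c(2)M, mei-P22, BicC and bgcn) had no overlap between WT and either mutant. They and AGO3 were named after their values were seen, carry no model test here, and are given as values. The gene c(2)M, for a lateral element protein of the synaptonemal complex, stood at 0.118, 0.143 and 0.161 FPKM in PhoKO, 0.213, 0.189, 0.212 and 0.120 FPKM in SppsKO and 0.354, 0.541 and 0.429 FPKM in WT, so WT was highest. The gene mei-P22, which acts in the formation of meiotic DNA breaks, stood at 0.424, 0.497 and 0.496 FPKM in PhoKO, 0.536, 0.893, 0.432 and 0.813 FPKM in SppsKO and 0.270, 0.191 and 0.316 FPKM in WT, so WT was lowest. The gene BicC, for an RNA-binding protein of the oocyte, averaged 0.0513 ± 0.00478 FPKM (SD, n = 3) in PhoKO, 0.0297 ± 0.00766 FPKM (SD, n = 4) in SppsKO and 0.134 ± 0.0394 FPKM (SD, n = 3) in WT. The gene bgcn, which acts with bam, averaged 0.380 ± 0.00685 FPKM (SD, n = 3) in PhoKO, 0.383 ± 0.0283 FPKM (SD, n = 4) in SppsKO and 0.323 ± 0.0294 FPKM (SD, n = 3) in WT. The gene AGO3, for the PIWI protein that works with Aub, was lower in PhoKO, at 0.270, 0.407 and 0.308 FPKM, than in SppsKO, at 0.479, 0.636, 0.505 and 0.490 FPKM, or WT, at 0.570, 0.437 and 0.761 FPKM, while SppsKO and WT overlapped. For scale, among genes averaging above 0 and under 1 FPKM, libraries did not overlap for 13.9% in PhoKO against WT and 11.4% in SppsKO against WT. These shares take each comparison alone. The share without overlap in both comparisons was not computed, so nothing was read from the count of 4.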
